A study of Homo sapiens with 12 samples.

Results

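RMRP, RPPH1, TERC, MALAT1 and NEAT1 are noncoding RNAs that work in the nucleus, the nucleolus or the telomere rather than as templates for protein. They were chosen by symbol from a list of 6 structural and nuclear RNAs, together with RN7SK, in a table of 23615 genes. The 5 named first have a row in the table. RN7SK was not matched to a row and was not analysed here. The libraries came from HEK293T, a human embryonic kidney line that carries the SV40 large T antigen, obtained from ATCC. Cells were transduced with a lentiviral pLKO hairpin vector and selected with puromycin, either with a hairpin against HuR (shHuR) or with a control hairpin (shControl). Each line was left untreated, or was given HNE(alkyne) at 25 µM or H2O2 at 225 µM for 18 h. HNE is a reactive aldehyde formed when membrane lipids are oxidised, here with an alkyne handle, and H2O2 is a general oxidant. The 6 groups held 2 libraries each, 12 in all, and the submitters call them biological replicates. Each line rests on 1 hairpin sequence, so an effect of the hairpin's target cannot be told apart from other differences between the lines. All 12 libraries share the lentiviral vector and the selection. RNA was extracted with Trizol, depleted of rRNA and sequenced as directional single-end reads of 75 bases, so RNAs without a poly(A) tail stayed in the sample.

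RNase MRP and RNase P are related particles that share most of their proteins. The RNA of RNase MRP is RMRP, which acts in rRNA processing, and the RNA of RNase P is RPPH1, which acts in the removal of the 5′ leader of tRNA precursors. TERC is the template RNA of telomerase, the enzyme that extends chromosome ends. MALAT1 is a long RNA of nuclear speckles, bodies rich in splicing factors. NEAT1 is the RNA scaffold of paraspeckles. RMRP and RPPH1 are transcribed by RNA polymerase III, and TERC, MALAT1 and NEAT1 by RNA polymerase II. HuR, the protein of ELAVL1, binds U-rich and AU-rich stretches of RNA. It is known to stabilise many of the mRNAs it binds, and it has been linked to the export of RMRP from the nucleus.

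Because HuR is known for U-rich and AU-rich RNA, the members' sequences were searched on the transcript strand for the pentamer ATTTA of AU-rich elements, for the U-rich run written TTTTTTT in DNA letters, and for the mixed form TTTATTT, with overlapping matches counted. Transcripts and positions are from GENCODE 29 on GRCh38. RMRP (268 bases, chr9:35657751-35658018, minus strand, 63.1% G and C), RPPH1 (333 bases, chr14:20343075-20343407, minus strand, 64.6%) and TERC (541 bases, chr3:169764520-169765060, minus strand, 66.7%) are single-exon noncoding transcripts. Each held 0 matches to each motif. MALAT1-202 (8708 bases, 1 exon, chr11:65497762-65506469, plus strand, 40.3% G and C) held 22 matches to the pentamer, 30 to the U-rich run and 6 to the mixed form. The long NEAT1 transcript, NEAT1-202 (22743 bases, 1 exon, chr11:65422798-65445540, plus strand, 44.1%), held 46, 40 and 13 of them. The short one, NEAT1-201 (3441 bases in 2 exons), held 6, 2 and 0. MALAT1-202 thus carried 2.53 matches to the pentamer and 3.45 to the U-rich run per kb. The medians over the transcripts of 14551 tested genes were 1.05 and 0.272 per kb. NEAT1-202 carried 2.02 and 1.76 per kb, and NEAT1-201 1.74 and 0.581. A T run longer than the motif gave more than 1 match, so these are not counts of separate runs. Among all those transcripts 82.1% held the pentamer, 55.5% the run and 53.1% the mixed form. Among the 286 of them under 600 bases the shares were 14.3%, 2.1% and 2.45%, so 0 matches was the usual state for RNAs as short as RMRP, RPPH1 and TERC.

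Windows of 30 bases show what the matches look like in both long RNAs, with the letters of any match in capitals. The MALAT1 window (bases 4518 to 4547 of MALAT1-202) holds a T run and 2 copies of the pentamer in 1 stretch, and the NEAT1 windows show its longest T run and its paired ATTTA. A pair of windows from the short transcript NEAT1-201 follow, since the length implied by the deposited values of NEAT1 lies close to it. Matches are letters, not measured binding sites.
MALAT1-202, chr11:65502279-65502308, plus strand: aTTTTTTTcaggtgATTTAataataATTTA
NEAT1-202, chr11:65442119-65442148, plus strand: agttttgaTTTTTTTTTTTTTTTTaatggt
NEAT1-202, chr11:65432542-65432571, plus strand: tcctctccATTTAaattaattATTTAcatt
NEAT1-201, chr11:65424769-65424798, plus strand: agtgctcttttgttcttgcttcgTTTTTTT
NEAT1-201, chr11:65425920-65425949, plus strand: taATTTAttgtatttttaatttgaatgttt

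MALAT1 was the 1 member with promoters in the RefSeq table (GRCh38.p14), with 2 windows of 300 bases. The window at chr11:65498795-65499094 on the plus strand held the letters TATAAA starting 30 bases before the annotated start, in capitals here with its surroundings. This window begins downstream of the first base of MALAT1-202 (chr11:65497762), inside that transcript. The other window (chr11:65497488-65497787) spans that first base and held neither TATAAA nor TTATA. Over 35116 promoters of that length, 11.5% held TATAAA and 20.4% held TTATA at any position on either strand. A promoter with TATAAA always counts for TTATA too, since TATAAA contains TTATA as read on the opposite strand. The shares for the position and strand of the MALAT1 match were not counted.
MALAT1 promoter: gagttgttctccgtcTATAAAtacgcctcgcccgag

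The libraries held 24855946 to 29907256 counts each, with 17278 to 18301 genes detected, and 16005 genes were tested. The first shControl libraries with H2O2 (17278) and with HNE (17524) had the fewest genes detected, and the others had 18057 or more. ELAVL1, the target of the hairpin, had 93.1 ± 4.91 CPM (counts per 1000000 of the TMM-scaled library, SD, n = 6) in shControl and 71.3 ± 2.01 in shHuR. Its log2 difference was -0.38 (adjusted p = 2.60e-06, edgeR), so its RNA was partly reduced. Of the HEK293T markers, VIM (345 to 521 CPM), NEFL, NEFM, KRT8 and KRT18 were present, whereas PAX2 stayed at 4 to 14 counts per library. CD3E, PTPRC, ALB, HBB and INS, markers of blood, liver and pancreas, were at 0 to 6 counts. Small RNA genes (1703 in the table) were chosen by symbol, among them small nucleolar, spliceosomal, vault and microRNA genes. They took 0.627% to 1.29% of counts. The highest shares were in the second shControl libraries with HNE (1.29%) and without treatment (1.16%).

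RMRP and RPPH1 held first and second place among all genes in every library, and the 5 RNAs together took 3.22% to 4.11% of all counts. RMRP alone took 1.58% to 1.96% and RPPH1 1.44% to 1.97%. MALAT1 stood between rank 16 and rank 35 at 0.151% to 0.203%. TERC took 0.0157% to 0.0223% and NEAT1 0.00589% to 0.00976%. Per kb of annotated transcript the median level was 63379 CPM for RMRP, 48637 for RPPH1, 337 for TERC, 194 for MALAT1 and 20.5 for NEAT1 on the length of NEAT1-201. The ranges of these levels over the libraries overlapped for RMRP (58172 to 73844) and RPPH1 (42843 to 59854) but not between any other neighbours in the order. TERC (287 to 417) lay above MALAT1 (173 to 234), and MALAT1 above NEAT1 (17.1 to 28.3).

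The length that joins the deposited count to the deposited FPKM value bears on that order. The count was divided by the FPKM value and by the library's total count, in matching units. The division gave a median of 8704 bases for MALAT1, 100.0% of its annotated length. For NEAT1 it gave 3615 bases, close to NEAT1-201 and 15.9% of NEAT1-202. For RMRP it gave 74.3 bases, 27.7% of the annotated length, for RPPH1 141 bases (42.5%) and for TERC 253 bases (46.7%). The deposited FPKM of the short RNAs was therefore higher relative to that of the long ones than a count per annotated length would give. MIR612, a microRNA gene annotated inside NEAT1 on the same strand, has a row of its own with 5 to 24 counts per library. None of the 5 RNAs had fractional counts.

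**Figure D1:**
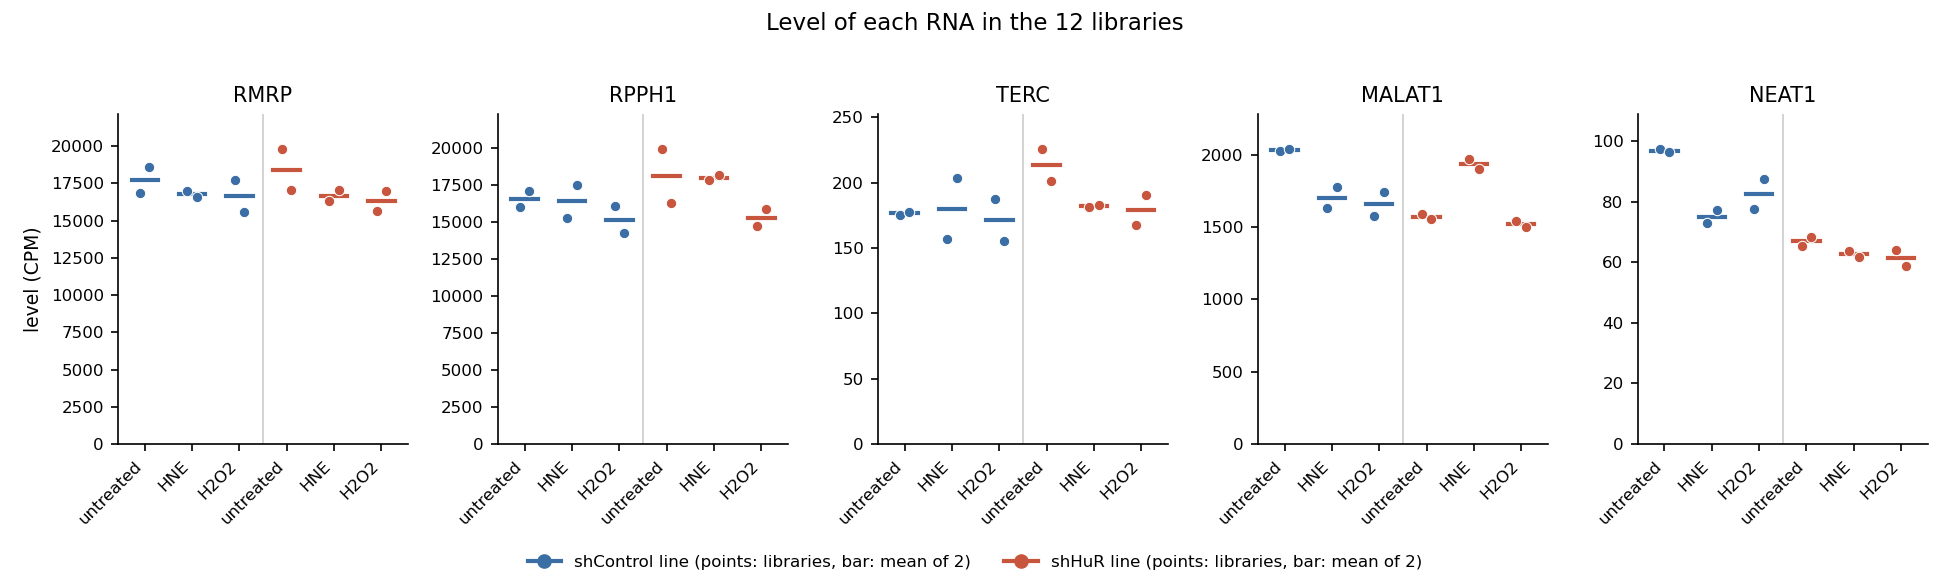
Level in CPM (vertical axes, 1 panel per RNA) in each of the 12 libraries, grouped by line and treatment, with points for libraries and bars for group means. NEAT1 lies at 73.0 to 97.3 CPM in shControl and at 58.8 to 68.3 CPM in shHuR, while the lines overlap for the other 4 RNAs.

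NEAT1, the paraspeckle scaffold, was the 1 RNA of the 5 whose lines differed in the fit over all treatments. In shControl it had 97.3 and 96.4 CPM untreated, 73.0 and 77.2 with HNE, and 77.6 and 87.3 with H2O2 (replicates 1 and 2 in each pair). In shHuR it had 65.5 and 68.3 CPM untreated, 63.7 and 61.9 with HNE, and 63.9 and 58.8 with H2O2. All 6 shHuR libraries lay below all 6 shControl libraries, as in 6.84% of all genes, and within shControl the untreated libraries were highest. The line means were 84.8 ± 10.4 and 63.7 ± 3.21 CPM (SD, n = 6), a log2 difference of -0.41 (SE 0.0504, adjusted p = 1.38e-05, edgeR quasi-likelihood test with Benjamini-Hochberg adjustment, as throughout). In that comparison 29.9% of all genes tested passed an adjusted p of 0.05, 15.9% as lower. The count among the members, 1 of 5, is close to that background. In the untreated groups NEAT1 fell by 0.53 on the log2 scale (SE 0.0763, adjusted p = 0.00106), and with H2O2 by 0.43 (SE 0.0766, adjusted p = 0.00433). Of all genes 7.98% passed in the untreated comparison and 7.19% in the H2O2 comparison. The difference with H2O2 no longer passed without the second shHuR library with H2O2 (-0.37, adjusted p = 0.0832). With HNE the log2 difference was -0.26 (95% interval -0.42 to -0.09) and missed the threshold (adjusted p = 0.0534), where 8.27% of genes passed. It passed with DESeq2 (-0.25, adjusted p = 0.0425).

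Among 14 paraspeckle proteins tested, 5 were higher in shHuR, 3 lower and 6 did not pass over all treatments, where 29.9% of all genes were called. Their median log2 difference was 0.08, against -0.0018 for all genes. PSPC1, a core paraspeckle protein, rose from 97.3 ± 10.2 to 119 ± 9.81 CPM (SD, n = 6; 0.30, adjusted p = 8.09e-05). HNRNPH3, an hnRNP of paraspeckles, rose by 0.23 (adjusted p = 0.00192). CPSF6, a subunit of the cleavage factor that sets the 3′ end of the short NEAT1 form, fell by 0.15 on the log2 scale (adjusted p = 0.00326). The partners NONO and SFPQ, which bind NEAT1 and hold the paraspeckle together, had log2 differences of -0.01 (adjusted p = 0.847) and 0.05 (adjusted p = 0.286). The summed count of NEAT1 does not separate its long and short forms, and the reads were not analysed here.

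MALAT1 was lower in shHuR than in shControl without treatment, and its difference did not pass the threshold with HNE or H2O2. In shControl it had 2026 and 2037 CPM untreated, 1632 and 1775 with HNE, and 1573 and 1741 with H2O2. In shHuR it had 1589.8 and 1556 CPM untreated, 1969 and 1900.1 with HNE, and 1545 and 1504 with H2O2. The untreated shControl libraries and the shHuR libraries with HNE formed the upper end, and the other groups lay between 1504 and 1775 CPM. The untreated difference was -0.37 on the log2 scale (SE 0.0640, adjusted p = 0.00393), and both shHuR libraries lay below both shControl ones, as in 28.6% of all genes. With HNE the difference was 0.18 (95% interval 0.05 to 0.32, adjusted p = 0.0937), and with H2O2 it was -0.12 (-0.26 to 0.02, adjusted p = 0.282). Over all treatments the line means were 1797 ± 196 and 1677 ± 202 CPM (SD, n = 6), a log2 difference of -0.10 that did not pass (adjusted p = 0.252).

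The response of MALAT1 to HNE had opposite signs in the lines. Both shControl libraries with HNE were below both untreated ones, by -0.25 on the log2 scale (SE 0.0639, unadjusted p = 0.00138, adjusted p = 0.218), an order seen in 20.3% of all genes. Both shHuR libraries with HNE were above theirs, by 0.30 (SE 0.0640, unadjusted p = 0.000366, adjusted p = 0.112), as in 21.6% of all genes. The difference between those responses was 0.55 (SE 0.0904, 95% interval 0.36 to 0.75). Its unadjusted p of 2.73e-05 was the smallest of all 16005 genes in edgeR, but the adjusted p was 0.432. In edgeR 0 genes passed that interaction (0%), against 1077 (6.73%) at an unadjusted p under 0.05, 5 genes with DESeq2 and 3 with limma. With DESeq2 the adjusted p of MALAT1 was 0.000112 at the same size of 0.55, and without the filter on low counts it was 7.34e-06. Without the first shControl library with HNE it was 0.0453 (0.50). In the other fits of all libraries, with limma or edgeR, the adjusted p was 0.208 to 0.637. Opposite, non-overlapping responses of this kind were seen in 5.95% of all genes, 953 in number. Over the alternative fits and the left-out libraries the value stayed between 0.50 and 0.61, while the call changed with the test, the filter and a left-out library.

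**Figure D2:**
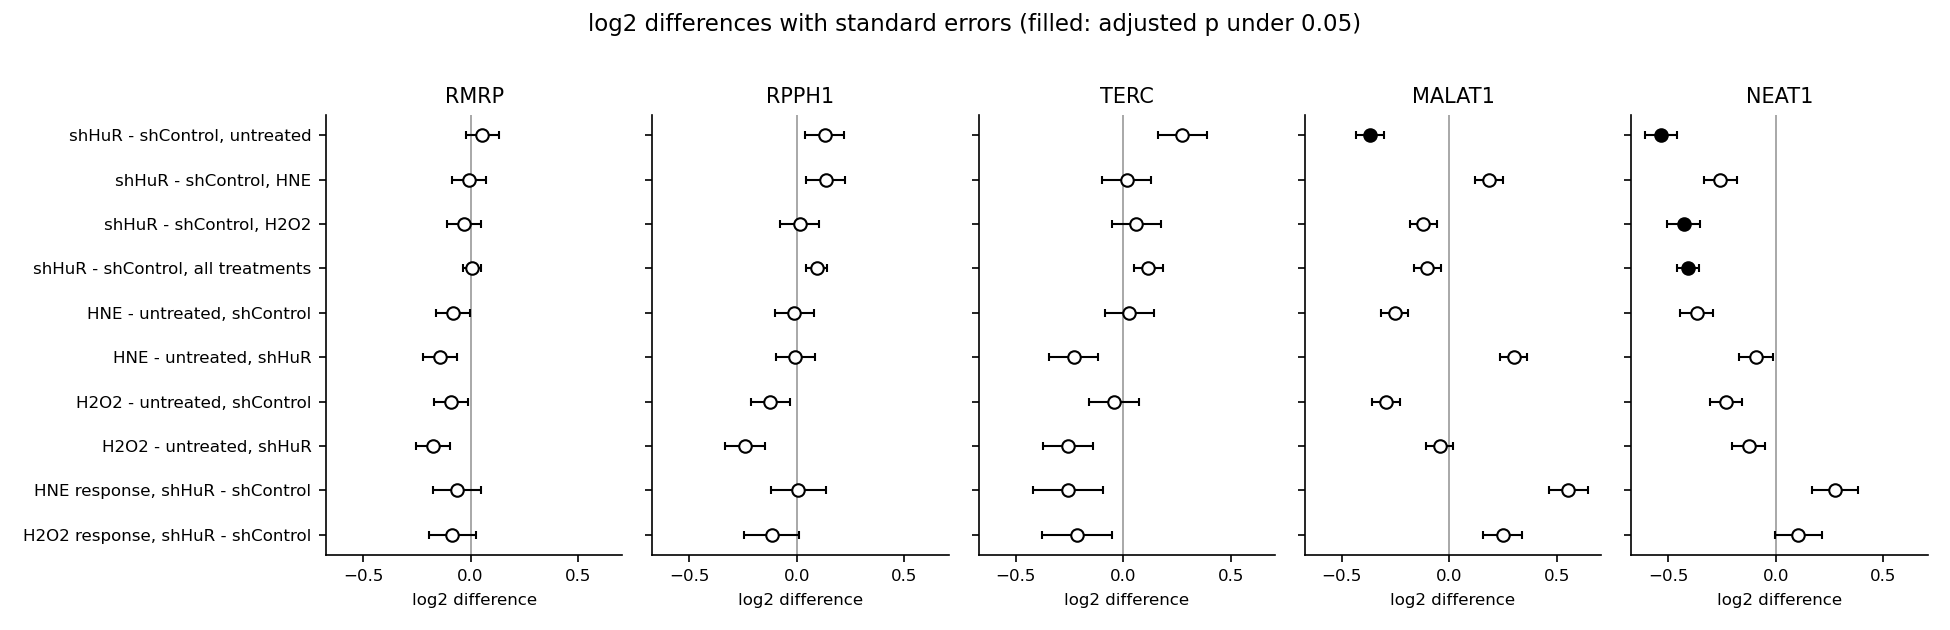
Fitted log2 differences (horizontal axes, 1 panel per RNA) in the line, treatment and interaction comparisons, with bars for standard errors and filled points for an adjusted p under 0.05. Filled points are seen for NEAT1 untreated, with H2O2 and over all treatments and for MALAT1 untreated, and the open point for the HNE response of MALAT1 between the lines stands at 0.55.

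Among 10 proteins of nuclear speckles, 2 were higher, 1 lower and 7 did not pass in the line comparison over all treatments (median 0.05), a share close to the 29.9% of all genes called. SON, a speckle scaffold protein, rose by 0.21 (adjusted p = 0.00164), and SRSF2, a splicing factor of speckles, by 0.12 (adjusted p = 0.0244). PNN, a speckle protein, fell by 0.15 on the log2 scale (adjusted p = 0.0137).

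The RNA of RNase MRP did not differ between the lines beyond the spread of the libraries. RMRP had 16894.5 and 18602 CPM in untreated shControl, 16962.5 and 16597 with HNE, and 17767 and 15590.2 with H2O2. In shHuR it had 19790.1 and 17088 CPM untreated, 16318 and 17058 with HNE, and 15680.4 and 17009 with H2O2. The untreated shHuR replicates lay farther apart than any of the 6 group means did, and the lines overlapped in every treatment. The line means were 17069 ± 1029 and 17157 ± 1404 CPM (SD, n = 6), a log2 difference of 0.01 with a 95% interval of -0.08 to 0.09 (adjusted p = 0.933).

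RPPH1, the RNA of RNase P, did not pass in any line comparison of the TMM-scaled edgeR fit with the filter either, and its libraries spread more widely. In shControl it had 16023 and 17089 CPM untreated, 15275 and 17549 with HNE, and 16109 and 14267 with H2O2. In shHuR it had 19931 and 16283 CPM untreated, 17858 and 18194 with HNE, and 14751 and 15886 with H2O2. The untreated shHuR replicates lay farthest apart, and with HNE both shHuR libraries exceeded both shControl ones (as in 25.1% of all genes), which was not so in the other conditions. The line means were 16052 ± 1192 and 17151 ± 1867 CPM (SD, n = 6), a log2 difference of 0.09 (95% interval -0.01 to 0.20, adjusted p = 0.170). The difference passed with library size as the only scaling (0.11, adjusted p = 0.0378) and without the filter on low counts (0.10, adjusted p = 0.0107).

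The ratio of RMRP to RPPH1 within a library, which does not depend on scaling, was 0.946 to 1.11 in shControl and 0.914 to 1.07 in shHuR. Its mean log2 difference was -0.09, with shHuR below shControl (exact 2-sided permutation of the lines within treatment, p = 0.00926, the smallest the regroupings allow; 0.0231 after Benjamini-Hochberg adjustment over 5 quantities). The ranges of the lines overlapped over all treatments. Within each treatment both shHuR libraries lay below both shControl ones. The margin was narrowest untreated (1.049 against 1.054 at the closest) and was also narrow with HNE (0.938 against 0.946). Without either shHuR library with HNE the p became 0.148 and 0.176, so the call rests on having both.

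Of the 11 protein subunits of RNase MRP and RNase P, 3 were higher in shHuR, none lower and 8 did not pass (median 0.14), a share close to the 29.9% of all genes called. POP1, the largest subunit shared by both particles, rose from 70.8 ± 3.71 to 88.2 ± 6.42 CPM (SD, n = 6; 0.31, adjusted p = 0.000147). POP4 rose by 0.17 (adjusted p = 0.0426) and RPP14 by 0.14 (adjusted p = 0.0206). Of 4 proteins linked to the movement of RMRP, 1 passed, against 29.9% of all genes called. That 1 was ELAVL1, the target of the hairpin. GRSF1, which binds RMRP in mitochondria, had 221 ± 8.34 and 218 ± 10.6 CPM (SD, n = 6; -0.02, adjusted p = 0.802).

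The line differences of TERC did not pass in the edgeR fits of all 12 libraries with the filter on low counts. In shControl it had 175 and 178 CPM untreated, 157 and 204 with HNE, and 187 and 156 with H2O2. In shHuR it had 226 and 202 CPM untreated, 182 and 183 with HNE, and 167 and 190.3 with H2O2. Both untreated shHuR libraries were above both untreated shControl ones, as in 27.3% of all genes, and the replicates of shControl with HNE lay farthest apart. The line means were 176 ± 18.3 and 192 ± 20.1 CPM (SD, n = 6), a log2 difference of 0.12 (95% interval -0.02 to 0.26, adjusted p = 0.197). Untreated, the difference was 0.27 (95% interval 0.03 to 0.52, unadjusted p = 0.0308, adjusted p = 0.163), and it passed with the compared groups fitted alone (0.28, adjusted p = 0.0307) and without the filter (0.28, adjusted p = 0.00857). The difference over all treatments passed without the filter (0.12, adjusted p = 0.0343) and without the second shControl library with HNE (0.18, adjusted p = 0.0156). The ratio of TERC to RMRP differed by 0.12 on the log2 scale (exact permutation p = 0.139, 0.148 adjusted).

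Of 12 proteins of telomerase and of TERC processing, 2 were higher, 1 lower and 9 did not pass (median 0.06), against 29.9% of all genes called. GAR1 and NOP10, core proteins that bind H/ACA RNAs such as TERC, rose by 0.27 (adjusted p = 0.00599) and 0.20 (adjusted p = 0.0180). PAPD5, a poly(A) polymerase that tags the 3′ end of TERC for trimming, fell by 0.33 on the log2 scale (adjusted p = 0.000440). DKC1, the H/ACA pseudouridine synthase, had a difference of 0.12 (adjusted p = 0.0522), and PARN, the nuclease that removes the tags, had 0.02 (adjusted p = 0.832). TERT, the catalytic subunit, stood at 4.67 ± 0.794 and 4.24 ± 0.583 CPM (SD, n = 6; -0.14, adjusted p = 0.402).

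Other small RNAs were lower in shHuR over all treatments and with HNE. Of the 202 small RNA genes tested, 84 were lower and 0 higher over all treatments (edgeR, median -0.53), where 15.9% of all genes were lower. With HNE 54 were lower (median -0.90), where 8.27% of all genes passed in either direction. Untreated 1 was lower (median -0.37), and with H2O2 1 was lower (median -0.26). Of a list of other structural small RNAs, 6 of 7 tested were lower and none higher over all treatments (median -0.87), against 29.9% of all genes called. With HNE 3 of the 7 passed, and untreated and with H2O2 0 did in edgeR. The vault RNA VTRNA1-2 fell by 1.28 on the log2 scale (adjusted p = 0.00357), VTRNA1-1 by 1.03 (adjusted p = 0.00941) and the minor spliceosomal RNU12 by 1.06 (adjusted p = 0.00806). The spread was wide in shControl, where VTRNA1-2 ranged from 14.4 to 76.3 CPM, against 10.3 to 19.4 in shHuR. RMRP, RPPH1 and TERC, with values of 0.01, 0.09 and 0.12, were not among the genes that fell. The share of counts in small RNA genes was lower in shHuR by 0.30 on the log2 scale (exact permutation p = 0.0926, 0.148 adjusted). The part of that share in the results on RMRP, RPPH1 and TERC was not tested. The share in the 5 RNAs differed by 0.06 (exact permutation p = 0.148, 0.148 adjusted).

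**Figure D3:**
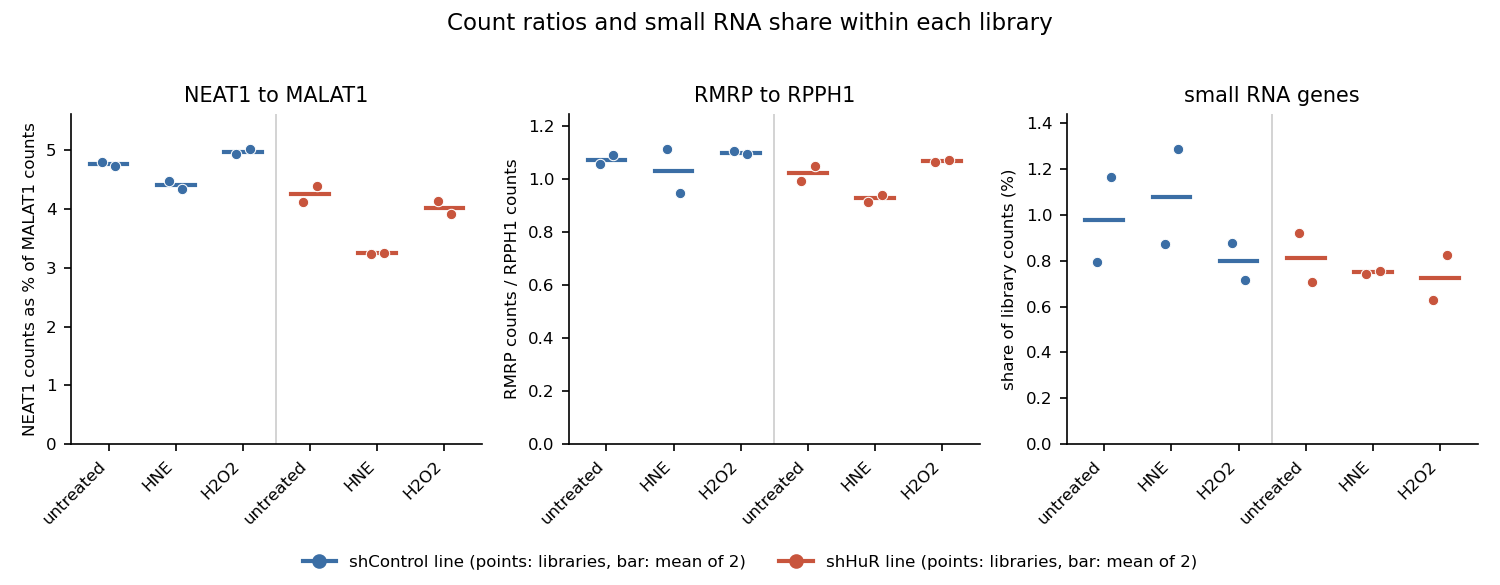
NEAT1 counts as a percentage of MALAT1 counts, RMRP counts divided by RPPH1 counts, and the share of each library's counts in small RNA genes in percent (vertical axes), by line and treatment, with a point per library and a bar for the mean of each group. The NEAT1 to MALAT1 ratio is lowest in both shHuR libraries with HNE (3.24% and 3.26%).

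NEAT1 stood at 4.35% to 5.02% of the MALAT1 count in shControl and at 3.24% to 4.39% in shHuR. The shHuR libraries with HNE were lowest, at 3.24% and 3.26%. The ranges overlapped at their edges over all treatments, but not within any treatment. The mean log2 difference was -0.30 (exact permutation p = 0.00926, the smallest possible, 0.0231 adjusted). NEAT1 was thus lower in shHuR relative to MALAT1 in the same libraries, and the ratio holds the movement of both RNAs. With HNE the line differences were -0.26 for NEAT1 and 0.18 for MALAT1, and neither passed. Untreated they were -0.53 and -0.37.

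The genes of the proteins that transcribe RMRP and RPPH1 included some that rose and some that fell. Of 22 subunits of RNA polymerase III and its promoter factors, 5 were higher, 4 lower and 13 did not pass (median 0.08), against 29.9% of all genes called. SNAPC1, a factor that binds promoters of small nuclear RNA genes, fell by 0.36 on the log2 scale (adjusted p = 0.000192). POLR3A and POLR3B, the largest subunits of the polymerase, rose by 0.23 (adjusted p = 0.000501) and 0.21 (adjusted p = 0.000646).

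The proteins that bind 7SK RNA were read although the RNA was not. Of 9 proteins of the 7SK particle and its kinase P-TEFb, 3 were higher and none lower, and 6 did not pass (median -0.04), a share close to the 29.9% of all genes called. MEPCE, which caps 7SK, rose by 0.28 (adjusted p = 7.04e-05), and HEXIM1, which holds P-TEFb inactive, by 0.23 (adjusted p = 0.0163). LARP7, which binds the 3′ end of 7SK, had a difference of 0.03 (adjusted p = 0.663).

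Of 18 other long noncoding RNAs tested, 3 were higher, 5 lower and 10 did not pass (median -0.02), against 29.9% of all genes called. HOTAIR, an RNA of the HOXC locus, fell from 16.4 ± 2.52 to 9.27 ± 0.581 CPM (SD, n = 6; log2 -0.82, adjusted p = 4.37e-06). The snoRNA hosts GAS5 and SNHG1 fell by 0.37 (adjusted p = 0.000171) and 0.29 (adjusted p = 9.23e-05) on the log2 scale. HOTAIR fell further than NEAT1, and the difference between the genes was not tested.

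**Figure D4:**
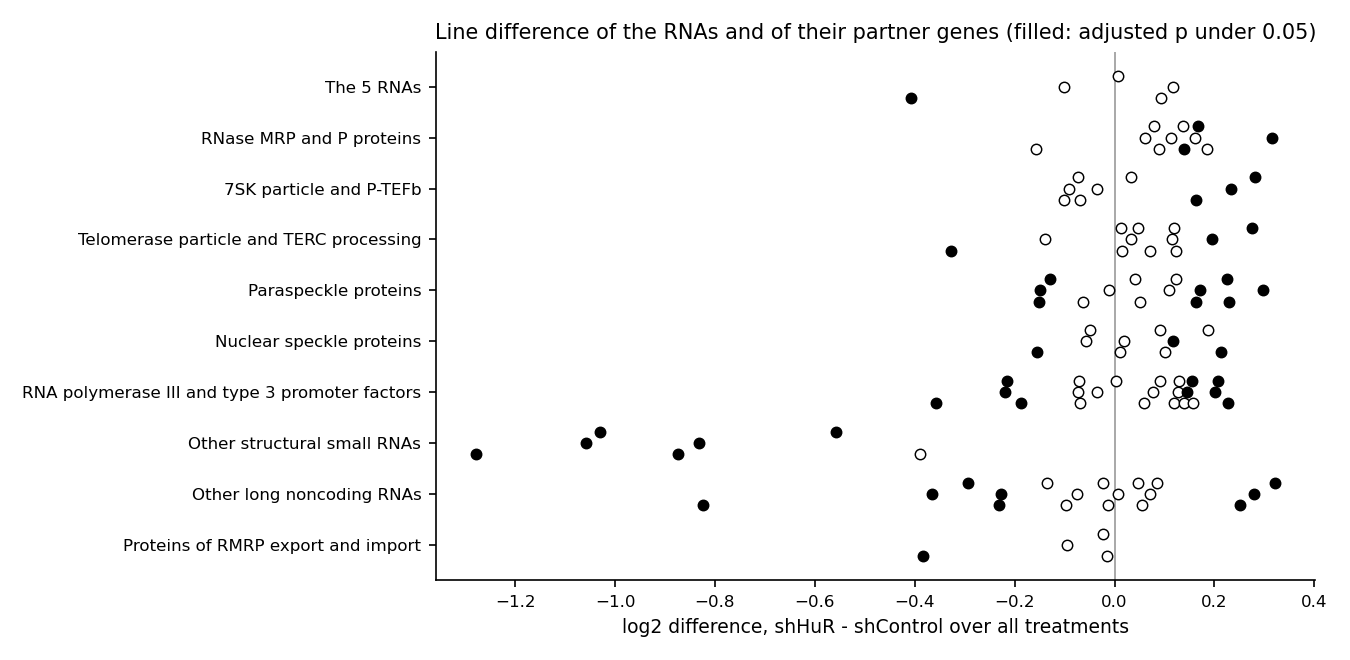
Log2 differences between the lines over all treatments (horizontal axis) for the 5 RNAs and each gene of the lists of partners and other noncoding RNAs, with a point per gene, filled for an adjusted p under 0.05. The structural small RNAs lie lowest, with a median of -0.87, and the paraspeckle proteins scatter on both sides of 0 (median 0.08).

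With the filter on low counts and no library left out, 0 of the 5 RNAs passed the threshold for either treatment in edgeR. Some passed without the filter, and the HNE calls of NEAT1 in shControl and MALAT1 in shHuR also changed with 1 library left out. For HNE over both lines, 39 genes of 15780 passed (0.247%), and none of the 5. In the shControl line 3 genes passed (0.0187%) and in the shHuR line 12 (0.075%). NEAT1 had the lowest HNE value over both lines, -0.23 (SE 0.0641, unadjusted p = 0.00302, adjusted p = 0.187), with -0.37 in shControl (unadjusted p = 0.000272, adjusted p = 0.161) and -0.09 in shHuR (adjusted p = 0.790). The NEAT1 value in shControl passed with DESeq2 (-0.37, adjusted p = 0.0130) and without the filter (-0.36, adjusted p = 0.00570), and that over both lines passed without the filter (-0.23, adjusted p = 0.0410). RMRP was -0.11 over both lines (95% interval -0.22 to -0.0042), RPPH1 -0.01 (-0.14 to 0.12), TERC -0.10 (-0.27 to 0.07) and MALAT1 0.02 (-0.16 to 0.21).

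With H2O2 all 5 RNAs had log2 values below 0 over both lines, and 0 passed after adjustment with the filter on low counts. RPPH1 was at -0.18 (95% interval -0.31 to -0.06, unadjusted p = 0.00782), NEAT1 at -0.18 (-0.29 to -0.06, unadjusted p = 0.00470), MALAT1 at -0.17 (-0.28 to -0.06, unadjusted p = 0.00554), TERC at -0.15 (-0.29 to -0.0020, unadjusted p = 0.0473) and RMRP at -0.13 (-0.25 to -0.01, unadjusted p = 0.0310). The adjusted p in edgeR was 0.900 for each of them. Without the filter RPPH1 (adjusted p = 2.34e-05), MALAT1 (0.0138) and RMRP (0.0160) passed. In edgeR 0 of 15801 genes passed (0%), while 861 (5.45%) had an unadjusted p under 0.05, DESeq2 called 3 genes and limma called 2. In shControl MALAT1 had -0.29 with H2O2 (unadjusted p = 0.000420, adjusted p = 0.998) and in shHuR RPPH1 had -0.24 (unadjusted p = 0.0189, adjusted p = 1.00). Without the filter both passed at the same size, with adjusted p = 0.00470 for MALAT1 and 0.00796 for RPPH1. With the filter, in edgeR 0 genes passed in either line (0%). In shControl 695 genes (4.34%) had an unadjusted p under 0.05, DESeq2 called 2 and limma 3, and in shHuR 540 did (3.37%), DESeq2 called 3 and limma 2. For the interaction of line and H2O2, 0 genes passed in edgeR (0%), against 580 (3.62%) at an unadjusted p under 0.05, 3 with DESeq2 and 3 with limma. MALAT1 had 0.25 there (unadjusted p = 0.0156, adjusted p = 1.00). The HNE and H2O2 comparisons share the untreated libraries, and the untreated shControl libraries, which were highest for both MALAT1 and NEAT1, also enter the untreated line comparison. A lower level in bulk RNA could come from fewer cells carrying an RNA or from less of it per cell, which cannot be told apart here.

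Genes whose log2 CPM followed each RNA most closely over the 12 libraries, among 11269 genes at 5 CPM or more, were read as a measure of likeness only. RPPH1 was closest to SCARNA13, a Cajal body RNA (r = 0.929), and then to PSMB7 and HIST1H4D (0.902 and 0.895). TERC was closest to RPS20 (0.937), TALDO1 (0.936) and HIST1H3H (0.919), and RMRP to HIST1H2BL (0.895), ANAPC16 (0.861) and RPL30 (0.828). NEAT1 was closest to DDX12P (0.952), ADAMTS6 (0.941) and BAI3 (0.940), and MALAT1 to RPAP3 (0.906), SCRN1 (0.856) and HLA-L (0.848). Histone genes, whose mRNAs lack a poly(A) tail, appear among the closest of RMRP, RPPH1 and TERC. Between the members themselves, RPPH1 and TERC followed each other most closely (r = 0.782), RMRP and RPPH1 had 0.690, RMRP and TERC 0.638, and MALAT1 and NEAT1 0.542. These values share libraries and scaling.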

How the data were processed

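Gene counts of 12 libraries were used. The deposited values are estimated counts, since 2.25% are not whole numbers, and were rounded. The deposited FPKM values, scaled by the authors to transcript length and library size, served in alternatives and for lengths. The tools were cutadapt 1.8, TopHat2 2.1 with Bowtie2 2.2, and Cufflinks 2.2 with Cuffnorm and Cuffdiff, and the builds GRCh37 and hg19, per the submitters' processing notes. The annotation and the strand setting of the counting are not given in the sources used here. Sequences are from GENCODE 29 and RefSeq on GRCh38, matched by symbol only.

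Differences were fitted with edgeR 4.0.16 (R 4.3.3), TMM scaling, a minimum count of 10 in filterByExpr and Benjamini-Hochberg adjustment over all genes tested (threshold 0.05). Pairwise differences and interactions came from 6 group means (6 residual degrees of freedom). The line difference over all treatments had treatment as a covariate, and treatment effects over both lines used 8 libraries with line as a covariate. Ratios were tested by exact permutation of lines within treatment. DESeq2 1.42.0, limma 3.58.1 on log2 FPKM, other scalings, filters, a replicate block and left-out libraries were alternatives. The fits were tested on simulated data. No 2 replicates agreed within sampling noise, and the pairs were unequal. Their chi-squared per degree of freedom was lowest in shHuR with HNE (2.93) and highest in shControl with HNE (21.5). Counting error was at most 2.49% (NEAT1, lowest count), and covers counting only.

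The members and the lists were chosen with earlier results of these data known. Besides the members, the text names ELAVL1, LARP7, MEPCE, HEXIM1, DKC1, TERT, PARN, POP1, NONO, SFPQ and GRSF1 whatever their values, up to 3 genes per list with the smallest p over all treatments, and the 3 genes most alike to each member. The values of 1 gene that this rule names are not reported here.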

Additional observations from a re-analysis of the deposited data

Results flagged for a closer look

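The HNE response of MALAT1 differed between the lines by 0.553 on the log2 scale (shHuR minus shControl, edgeR interaction, unadjusted p = 2.73e-05, adjusted p = 0.432). It drew attention because both shControl libraries with HNE lay below their untreated libraries and both shHuR libraries with HNE lay above theirs, and because the test of the difference gave the smallest unadjusted p of 16005 genes. It did not pass after adjustment, and 5.95% of all genes showed opposite, non-overlapping responses. The small RNA share of the same libraries was up to 1.29% in shControl with HNE, and its part in the result was not tested.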

How the results depend on the processing

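With 2 libraries a group, the counts of calls moved widely between fits, and the cause was not tested. Without the filter on low counts, the line comparisons called 1949 genes untreated, 2061 with HNE and 1802 with H2O2, HNE called 329 in shControl, 198 in shHuR and 334 over both lines, H2O2 called 91, 33 and 117, and the interactions with HNE and H2O2 called 103 and 36. DESeq2 called 71, 107 and 181 for HNE, 2, 3 and 3 for H2O2, and 5 and 3 for the interactions. Limma on log2(FPKM + 1) called 6 for HNE in shHuR and 2 over both lines, 3, 2 and 2 for H2O2, and 3 and 3 for the interactions. With a pseudocount of 0.1 it called 4 for HNE over both lines, 5, 2 and 2 for H2O2 and 1 for the HNE interaction. With no filter it called 726, 717 and 675 for the lines, 2 and 1 for HNE in shHuR and over both lines, 3, 2 and 1 for H2O2, and 2 and 2 for the interactions. The compared groups fitted alone gave 204 for the lines with HNE, 59 for HNE in shHuR and 8 for H2O2 in shHuR. Library size alone gave 7 for HNE in shHuR, and turned the split of line calls over all treatments from 2249 higher and 2538 lower to 2604 and 2161.

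Same-numbered replicates deviated together in some pairs of groups and in opposite directions in others (r from -0.45 to 0.51). Of 15 pairs of groups, 6 had r above 0.1 and 7 below -0.1. The numbers thus gave no consistent pairing of the libraries. With the replicate block the lines gave 1058, 1116, 987 and 4652 calls, HNE in shControl, in shHuR and over both lines 2, 6 and 14, and no member's call changed. The ratios of NEAT1 to MALAT1 and of RMRP to RPPH1 had p = 0.0312 (exact permutation within replicate blocks), the smallest that the fewer regroupings of that test allow.

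Leaving out 1 library at a time, the counts ranged from 242 (without shControl untreated replicate 2) to 2055 (without shControl HNE replicate 2) for the lines untreated, 164 to 1890 with HNE, and 290 to 1845 with H2O2. For HNE they ranged from 0 to 859 in shControl (859 without shControl HNE replicate 1), 3 to 62 in shHuR and 3 to 168 over both lines. For H2O2 they were 0 to 4, 0 to 2 and 0 to 1, and for the interactions 0 to 87 and 0 to 3.

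Among the members, NEAT1 with HNE passed between the lines with DESeq2 (-0.25), without the filter (-0.25, adjusted p = 0.0446), at a mean CPM of at least 1 (-0.26, adjusted p = 0.0487) and scaled without the members and small RNA genes (-0.26, adjusted p = 0.0490). It ranged from -0.29 to -0.22 with 1 library left out, and NEAT1 with H2O2 from -0.51 to -0.34. MALAT1 with HNE passed between the lines with library size alone (0.21, adjusted p = 0.0463) and ranged from 0.14 to 0.24. The HNE response of MALAT1 passed in shControl with DESeq2 (-0.25, adjusted p = 0.0477) and without the filter (-0.25, adjusted p = 0.0178), and in shHuR with DESeq2 (0.30, adjusted p = 0.00589) and without the filter (0.30, adjusted p = 0.00322), ranging there from 0.27 to 0.32. Its interaction passed with DESeq2 (0.55) and without the filter (0.55), and ranged from 0.50 to 0.61. Without the filter RPPH1 (-0.18, adjusted p = 2.34e-05), MALAT1 (-0.17, adjusted p = 0.0138) and RMRP (-0.13, adjusted p = 0.0160) also passed with H2O2 over both lines, as did MALAT1 with H2O2 in shControl (-0.29, adjusted p = 0.00470), RPPH1 with H2O2 in shHuR (-0.24, adjusted p = 0.00796), NEAT1 with HNE in shControl (-0.36, adjusted p = 0.00570) and over both lines (-0.23, adjusted p = 0.0410), and between the lines TERC untreated (0.28, adjusted p = 0.00857) and over all treatments (0.12, adjusted p = 0.0343) and RPPH1 over all treatments (0.10, adjusted p = 0.0107). The ratio of RMRP to RPPH1 ranged from -0.12 to -0.047, that of TERC to RMRP from 0.048 to 0.18 and the small RNA share from -0.39 to -0.21. With FPKM in place of counts the small RNA share had -0.24 (exact permutation p = 0.0370) and the share in the 5 members 0.36 (exact permutation p = 0.0185). Both are parts of the same sum of FPKM, in which short RNAs weigh more than in counts. With counts the share in the 5 members differed by 0.06.

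Differences near 0 changed sign: RMRP with HNE between the lines was 0.018 with library size alone. With 1 library left out, the line differences of RMRP ranged from -0.049 to 0.16 untreated, -0.040 to 0.026 with HNE, -0.12 to 0.073 with H2O2 and -0.023 to 0.039 over all. RPPH1 ranged from -0.018 to 0.27 untreated and -0.071 to 0.11 with H2O2, and TERC from -0.15 to 0.22 with HNE and -0.067 to 0.21 with H2O2. For HNE in shControl, RPPH1 ranged from -0.11 to 0.076 and TERC from -0.17 to 0.20. RPPH1 ranged from -0.15 to 0.14 in shHuR and -0.067 to 0.050 over both lines, and MALAT1 from -0.046 to 0.11 over both lines. For H2O2 in shControl, RMRP ranged from -0.19 to 0.00015 and TERC from -0.19 to 0.085. The HNE interaction ranged from -0.16 to 0.046 for RMRP and -0.13 to 0.16 for RPPH1, and the H2O2 interaction from -0.19 to 0.022 and -0.26 to 0.033. The planned results on RN7SK and RN7SL1 were not run, since neither was matched to a row.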
